A study of Mus musculus with 6 samples.

Results

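The genes described here are 42 genes of fatty acid oxidation, ketogenesis and peroxisomes, taken as the rows of the deposited count table whose gene symbol is on a named list. All 42 were found among 52459 rows, and all 42 passed the filter on low counts. By site of action, 18 encode mitochondrial steps, 14 encode peroxisomal steps and 10 act at both sites or elsewhere. The thioesterases Acot1, Acot2 and Acot12 were kept together in the last group, although Acot2 is a mitochondrial protein. Pdk4, a mitochondrial kinase that acts on pyruvate oxidation, was also placed there. The RNA came from liver tumours of mice of the MYC-LAP-tTA genotype, a hepatocellular carcinoma (HCC) model in which a tetracycline transactivator under a liver activator protein promoter drives a MYC transgene in liver cells. MYC was active in 3 libraries (MYC-On), and 3 libraries were taken on day 4 of MYC inactivation (MYC-Off). Both groups carry the same genotype and were sampled as flash frozen tumour. The labels give no age or strain. Nor do they tie a library to its own animal. The p-values thus reflect no more than the scatter among the libraries at hand, part or all of which could be technical.

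Fatty acids are first joined to coenzyme A, and long chains then enter mitochondria as carnitine esters. Inside, repeated cycles of oxidation, hydration, a further oxidation and cleavage release acetyl-CoA, which the liver can turn into ketone bodies for other organs. Peroxisomes run a parallel set of reactions on very long, branched and bile acid precursor chains. Their first oxidation makes hydrogen peroxide, which catalase removes, and the shortened chains leave for mitochondria. In the liver both routes are known targets of the fatty acid receptor PPARα, which binds pairs of hexamers with a 1-base spacer as a dimer with RXR.

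Because such elements often lie near start sites, the promoter windows of the members were searched on both strands. RefSeq windows (GRCm38.p6, 250 bases before to 50 after a start) were matched by symbol for 37 of the 42 members, in 41 windows. Acaa2, Acat1, Crat, Decr1 and Hsd17b4 had no entry. The direct repeat AGGTCANAGGTCA was in 0 of the 41 windows and in 0.0396% of all 32851 windows. Its relaxed form AGGNCANAGGNCA, which includes the former, was in 1 window, that of Fabp1, against 0.381% of all windows. The single hexamer AGGTCA, which also lies within the direct repeat, was in 8 windows (19.5%, against 16.3% of all). The MYC hexamer CACGTG was in 0 of the 41 windows, against 7.15% of all. A match describes letters only. The windows below show the relaxed repeat of Fabp1 and the hexamer upstream of 3 genes that rose in MYC-Off and 3 that did not pass the test, so that they can be set beside the values given later. Each runs 5′ to 3′ along the gene's strand, with the matched letters, in either orientation, in capitals.
Fabp1 (rose), chr6:71199782-71199854, plus strand: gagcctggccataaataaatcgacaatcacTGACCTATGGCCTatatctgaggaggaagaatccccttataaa
Acadvl (rose), chr11:70015490-70015535, minus strand: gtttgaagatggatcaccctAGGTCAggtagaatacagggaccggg
Cat (rose), chr2:103485332-103485377, minus strand: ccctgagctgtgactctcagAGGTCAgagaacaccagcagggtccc
Acot12 (rose), chr13:91741391-91741436, plus strand: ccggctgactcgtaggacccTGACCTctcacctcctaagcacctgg
Cpt1a (not past the test), chr19:3323187-3323232, plus strand: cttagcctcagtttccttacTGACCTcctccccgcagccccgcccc
Acadm (not past the test), chr3:153944867-153944893, minus strand: gTGACCTtcgggctccggtgacactgg
Slc27a2 (not past the test), chr2:126552784-126552829, plus strand: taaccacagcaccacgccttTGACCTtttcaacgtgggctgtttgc
The Fabp1 repeat begins 67 bases before the start site. The eighth window with the hexamer is that of Phyh, where it lies after the start.

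Myc, the gene that the design switches, stood at 779, 1020 and 854 CPM (reads relative to a common library total, scaled by the trimmed mean of M values, TMM) in MYC-On and at 74.8, 10.2 and 18.7 CPM in MYC-Off, which fits the labels. The count does not separate transgene from endogenous transcripts. Libraries held 16292718 to 19265623 reads, so that 1 read was worth 0.0409 to 0.0768 CPM. The 20 most abundant genes took 11.7% to 19.2% of reads in MYC-On and 29.9% to 39.1% in MYC-Off. Scaling therefore matters: scaling by library size only moved the log2 fold change of the median gene by -0.74. The liver origin was visible in every library, with the hepatocyte gene Alb at 828 to 2650 CPM in MYC-On and 59100 to 204000 CPM in MYC-Off. In bulk RNA, fewer cells of a type and less RNA per cell cannot be told apart. Values below are TMM-scaled CPM by replicate number, means are ± SD (n = 3), and log2 fold changes are MYC-Off minus MYC-On with their standard error (SE). Adjusted p-values are from edgeR's quasi-likelihood test, adjusted over 14130 genes, with a threshold of 0.05.

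The comparison asks how transcripts of these pathways differ between tumours with MYC active and tumours 4 days after its inactivation. Among the 42, peroxisomal genes were mostly higher after MYC inactivation, most of the mitochondrial β-oxidation genes did not pass the test, and the adjacent thioesterase genes Acot1 and Acot2 fell. The sites differed less in wider lists outside the 42, given below. There 55.0% of the peroxisomal list and 51.4% of the mitochondrial list rose, with medians of 1.65 and 1.25. Of the 42 members 19 rose (45.2%) and 2 fell (4.76%), while 29.9% of all genes tested were higher and 22.8% were lower, 52.7% in all. The libraries of the groups did not overlap for 22 members on the higher side (52.4%, against 33.2% of all genes) and for 3 on the lower side (Eci1, Acot1 and Acot2, against 29.8% of all genes). Of the 14 peroxisomal genes 10 rose (71.4%) and 0 fell. Of the 18 mitochondrial genes 5 rose (27.8%, near the share of all genes) and 0 fell, not counting Acot2, which fell and stands with the thioesterases. The median log2 fold change was 2.07 for peroxisomal genes, 0.58 for mitochondrial genes and 0.18 for all genes, and with library size only these medians were 1.23, -0.18 and -0.56, so the sign of the mitochondrial median depends on the scaling. Relative to the median of all genes the values were 1.89 and 0.40 with TMM and 1.80 and 0.39 with library size only. The number that rose was 12, 9 and 12 without MYC-On replicates 1, 2 and 3 in turn, against 19 with all libraries. For mitochondrial genes it was 1, 1 and 2 without those replicates, 8 without MYC-Off replicate 1 and 3 without MYC-Off replicate 2, and for peroxisomal genes 7 without MYC-On replicate 2. In 9 of the 19 genes that rose, and in both that fell, the call held under every alternative tried.

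**Figure D1:**
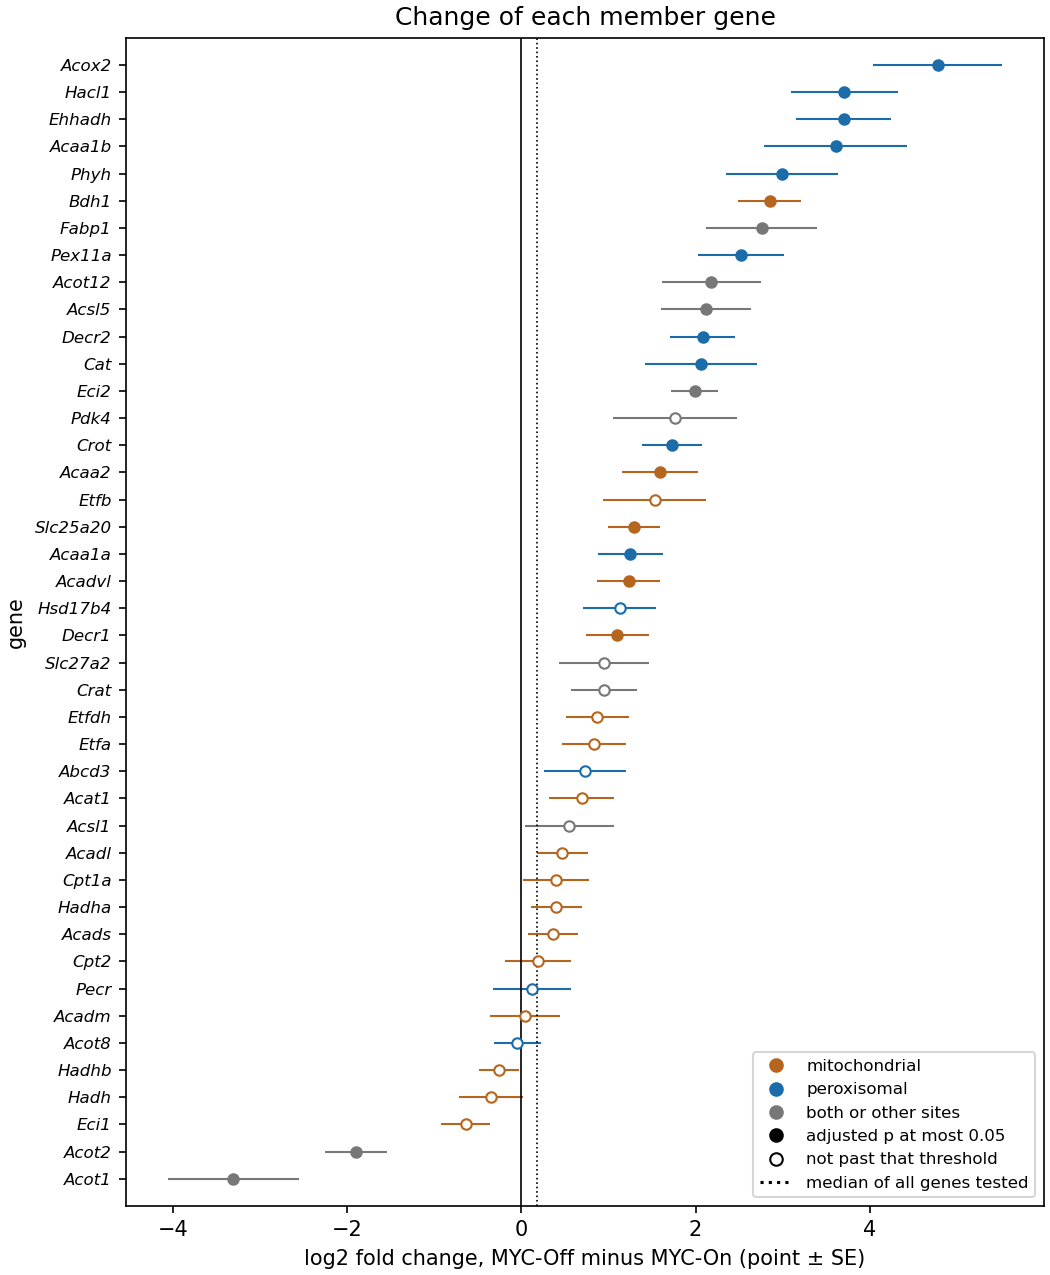
Log2 fold change (x axis, MYC-Off minus MYC-On, point ± SE, 3 libraries per group) of the 42 genes (y axis), coloured by site, with filled points for an adjusted p of at most 0.05. Peroxisomal genes hold the top 5 places, from Acox2 at 4.78 to Phyh at 2.99, and most mitochondrial genes lie between -0.64 and 1.59. With library size only, all points move left by about 0.74 and the mitochondrial median turns negative.

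Replicates differed within the groups. MYC-Off replicate 1 held the lowest MYC-Off level of 37 of the 42 genes, and MYC-On replicate 2 the lowest MYC-On level of 32. The median of the mitochondrial genes, as log2 CPM against the MYC-On mean, was 0.03, 0.82 and 0.80 in MYC-Off replicates 1, 2 and 3, and that of the peroxisomal genes was 1.16, 2.71 and 2.12. The peroxisomal median exceeded the mitochondrial median by 1.13, 1.89 and 1.32 in these libraries. Centring each gene on its MYC-On mean holds this gap near 0 in MYC-On, so those libraries give no comparison for it. This gap is taken within a library and does not depend on the scaling between libraries. Summed per kilobase of exon, peroxisomal transcripts stood at 0.592, 0.559 and 0.506 of the mitochondrial sum in MYC-On and at 0.884, 1.90 and 1.02 of it in MYC-Off, so the groups did not overlap. Much of the peroxisomal sum in MYC-Off came from Cat and Phyh, with means of 640 and 571 CPM per kilobase. The next peroxisomal gene, Pecr, had a mean of 108. In MYC-On the means of Cat and Phyh were 154 and 71.7 CPM per kilobase. The ratio without these genes was not tested.

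**Figure D2:**
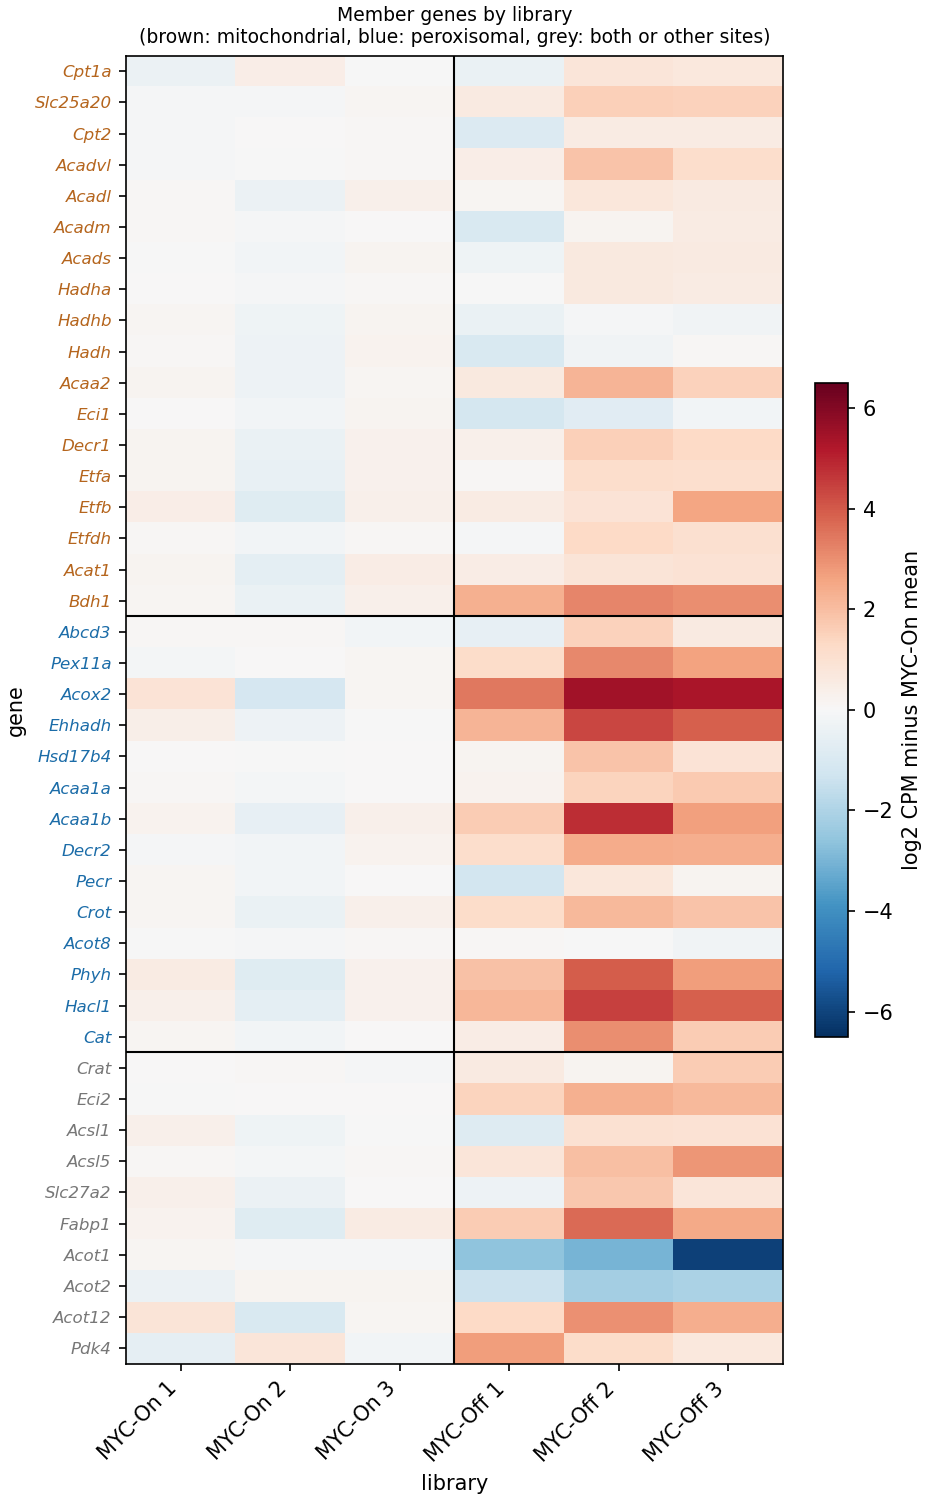
Level of each gene (rows, grouped by site) in each of the 6 libraries (columns), as log2 CPM minus the MYC-On mean of the gene, from blue (lower) to red (higher). The peroxisomal block is red in MYC-Off, most strongly in replicate 2, with its median at 2.71, whereas MYC-Off replicate 1 is pale in the mitochondrial block, with its median at 0.03.

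Long chains enter mitochondria in 3 steps, of which the membrane carrier alone passed the test. Slc25a20, the carnitine-acylcarnitine translocase (chromosome 9, 108662088 to 108684641, mm10), stood at 21.9, 22.1 and 25.2 CPM in MYC-On and at 34.9, 68.6 and 65.5 CPM in MYC-Off. The groups did not overlap, and its rise was 1.29 on the log2 scale (SE 0.30, adjusted p = 0.00993). That call was narrowly lost without MYC-On replicate 1 (adjusted p = 0.0513) or 2 (0.0505) and with library size only (log2 fold change 0.49, adjusted p = 0.132). Cpt1a makes the carnitine esters at the outer membrane and is regarded as the control point of the pathway. Its levels of 122, 212 and 157 CPM in MYC-On and 119, 275 and 254 CPM in MYC-Off overlapped (0.40, SE 0.38, adjusted p = 0.406). Cpt2, which returns the chain to coenzyme A on the inner face, stood at 70.8, 78.1 and 79.3 CPM in MYC-On and at 40.3, 109 and 111 CPM in MYC-Off. Here replicate 1 lay below every MYC-On library and the other MYC-Off libraries lay above them (0.19, SE 0.38, adjusted p = 0.694). Both signs turned with library size only, to -0.42 for Cpt1a and -0.64 for Cpt2.

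Within the mitochondrial β-oxidation cycle 3 of 10 genes rose, about the 29.9% of all genes tested. The first oxidation is shared by acyl-CoA dehydrogenases of different chain length. Acadvl, for very long chains, stood at 35.2, 36.3 and 38.5 CPM in MYC-On and at 48.6, 130 and 80.0 CPM in MYC-Off (1.23, SE 0.36, adjusted p = 0.0229). Its groups did not overlap, but 42.9% of its exon bases overlap Dvl2 on the opposite strand, and its reads are uncertain because the strand setting is not given. Dvl2 itself was at 22.1 to 27.2 CPM in MYC-On and 8.19 to 17.5 CPM in MYC-Off. The dehydrogenases for shorter chains did not pass the test: the log2 fold change was 0.47 for Acadl (SE 0.29, adjusted p = 0.205), 0.36 for Acads (SE 0.29, adjusted p = 0.329) and 0.04 for Acadm (SE 0.40, adjusted p = 0.935). Acadm, for medium chains, was at 278, 250 and 266 CPM in MYC-On and at 133, 301 and 384 CPM in MYC-Off. Its MYC-Off libraries thus lay on both sides of MYC-On, and its value of 0.04 turned negative under several alternatives. Scaled by library size only, Acadl stood at -0.29, Acads at -0.44 and Acadm at -0.79.

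The middle steps of the cycle are carried by the trifunctional protein and by Hadh. Hadha, its α subunit, stood at 326, 298 and 339 CPM in MYC-On and at 316, 495 and 463 CPM in MYC-Off, an overlap (0.40, SE 0.29, adjusted p = 0.277, and -0.37 with library size only). Hadhb, the β subunit, was at 28.0, 21.2 and 28.8 CPM in MYC-On and at 19.0, 24.0 and 22.0 CPM in MYC-Off (-0.26, SE 0.23, adjusted p = 0.369). Per kilobase of exon the MYC-On means were 36.8 CPM for Hadha and 3.94 CPM for Hadhb, although the protein holds both subunits, and the counting of multiply matched reads is not stated in the labels. Hadh, for shorter chains, was at 551, 406 and 609 CPM in MYC-On and at 256, 438 and 535 CPM in MYC-Off (-0.35, SE 0.37, adjusted p = 0.452). The closing thiolase Acaa2 (chromosome 18, 74779197 to 74806208) behaved differently. It was at 200, 144 and 199 CPM in MYC-On and at 281, 837 and 516 CPM in MYC-Off, with no overlap, and its rise was 1.59 on the log2 scale (SE 0.44, adjusted p = 0.0197). Without MYC-Off replicate 2 Acaa2 stood at 1.03.

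Unsaturated chains need auxiliary enzymes, and these split. Decr1, the mitochondrial dienoyl-CoA reductase (chromosome 4, 15917240 to 15945507), stood at 58.8, 39.1 and 62.6 CPM in MYC-On and at 64.8, 152 and 126 CPM in MYC-Off, where the lowest MYC-Off library was barely above the highest MYC-On library (1.10, SE 0.36, adjusted p = 0.0356). Eci1, the mitochondrial enoyl-CoA isomerase, lay the other way, at 110, 98.0 and 122 CPM in MYC-On and at 49.7, 65.4 and 96.9 CPM in MYC-Off. Its groups did not overlap, yet its log2 fold change of -0.64 (SE 0.28, adjusted p = 0.0926) did not pass the test. It passed with DESeq2 (-0.74, adjusted p = 0.0352), with library size only (-1.42, adjusted p = 0.00276) and without MYC-Off replicate 3 (-1.04, adjusted p = 0.0113). Scaled by library size only, Hadh (-1.14, adjusted p = 0.0132) and Hadhb (-1.01, adjusted p = 0.015) were also lower.

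The calls of the 3 β-oxidation genes that rose rest on small margins. None of them passed with library size only: Acadvl stood at 0.42 (adjusted p = 0.249), Acaa2 at 0.77 (0.085) and Decr1 at 0.29 (0.401). Acadvl lost its call without MYC-On replicates 1, 2 and 3 (adjusted p = 0.0869, 0.0859 and 0.0769) and without MYC-Off replicate 2 (0.72, adjusted p = 0.0574). For Acaa2 this happened without each of the MYC-On replicates (adjusted p = 0.0712, 0.0919 and 0.0718). Decr1 lost it without any one library but MYC-Off replicate 1, with adjusted p between 0.0809 and 0.14, and stood at 0.73 without MYC-Off replicate 2.

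Electrons from the first oxidation pass through the flavoprotein ETF, of which Etfa and Etfb are the subunits, to the dehydrogenase Etfdh. None of the 3 genes passed the test. Etfa was at 143, 88.8 and 150 CPM in MYC-On and at 131, 278 and 268 CPM in MYC-Off (0.83, SE 0.37, adjusted p = 0.0975). Etfdh was at 88.5, 75.1 and 88.1 CPM in MYC-On and at 80.2, 208 and 171 CPM in MYC-Off (0.87, SE 0.36, adjusted p = 0.0759). In both, replicate 1 of MYC-Off lay inside the MYC-On range and the other MYC-Off libraries lay above it. Etfb was at 17.6, 7.53 and 16.1 CPM in MYC-On and at 18.6, 24.3 and 75.9 CPM in MYC-Off (1.53, SE 0.59, adjusted p = 0.0634), so most of its difference came from replicate 3, without which it stood at 0.54. Exons of other genes cover 58.2% of the exon bases of Etfb, mostly those of Gm45233 on the same strand. Gm45233 had 0 reads, and the reads of Etfb are uncertain. Without MYC-Off replicate 1 all 3 passed, at 0.95 for Etfa (adjusted p = 0.0255), 1.03 for Etfdh (0.00614) and 1.71 for Etfb (0.0391). Without MYC-Off replicate 2 the values were 0.54 for Etfa and 0.48 for Etfdh, and with library size only 0.02 and 0.05, none of them past the test.

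Among the mitochondrial genes, the clearest change was in Bdh1, 1 of the 2 listed for ketone metabolism. Bdh1 (chromosome 16, 31422280 to 31458901) interconverts acetoacetate and 3-hydroxybutyrate, the last step of ketone body production. It stood at 51.9, 34.5 and 58.7 CPM in MYC-On and at 233, 431 and 379 CPM in MYC-Off, a rise from 48.4 ± 12.4 to 348 ± 103 CPM. Every MYC-Off library was well above every MYC-On library, and the rise was 2.85 on the log2 scale (SE 0.36, adjusted p = 0.0013). Bdh1 alone among the 5 mitochondrial genes that rose kept its call under every alternative, between 2.06 and 2.95. Acat1, which joins or cleaves acetoacetyl-CoA upstream, was at 342, 195 and 426 CPM in MYC-On and at 418, 555 and 582 CPM in MYC-Off. The groups overlapped slightly, and 0.69 (SE 0.37, adjusted p = 0.15) did not pass the test and stood at -0.06 with library size only.

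In peroxisomal β-oxidation 5 of 7 genes rose (71.4%, against 29.9% of all genes tested). Acox2, the oxidase of branched chains and bile acid intermediates (chromosome 14, 8225511 to 8259353), stood at 19.6, 4.91 and 11.6 CPM in MYC-On and at 113, 459 and 423 CPM in MYC-Off. No library of either group came near the other group, and Acox2 rose 27.5-fold, or 4.78 on the log2 scale (SE 0.74, adjusted p = 0.00251), the highest of the 42. Ehhadh, the bifunctional enzyme that performs hydration and the second oxidation (chromosome 16, 21761287 to 21787807), stood at 18, 11.1 and 13.4 CPM in MYC-On and at 65.4, 279 and 207 CPM in MYC-Off (3.70, SE 0.55, adjusted p = 0.00219). Its counterpart of the other stereochemistry, Hsd17b4, was at 100, 97.1 and 99.0 CPM in MYC-On and at 110, 358 and 181 CPM in MYC-Off. These groups did not overlap either, but 1.13 (SE 0.42, adjusted p = 0.0559) missed the threshold. The value was 0.47 without MYC-Off replicate 2 and 0.31 with library size only, and Hsd17b4 passed without MYC-Off replicate 1 (1.30, adjusted p = 0.0108) and with DESeq2 (1.03, adjusted p = 0.0349).

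The thiolases Acaa1a and Acaa1b, which lie near each other on chromosome 9 (119339676 to 119350299 and 119148023 to 119157093), are near copies, so their reads are uncertain. Acaa1b stood at 6.95, 4.13 and 7.55 CPM in MYC-On and at 19.4, 170 and 38.6 CPM in MYC-Off (3.61, SE 0.82, adjusted p = 0.00949), and without MYC-Off replicate 2 it stood at 2.12. Its call was lost without MYC-On replicate 2 (3.34, adjusted p = 0.0516). Acaa1a was at 33.6, 28.9 and 31.6 CPM in MYC-On and at 36.6, 84.9 and 103 CPM in MYC-Off (1.25, SE 0.37, adjusted p = 0.0262). MYC-Off replicate 1 was close to the MYC-On libraries, and the call of Acaa1a was lost with library size only (0.43, adjusted p = 0.249) and without any one library but MYC-Off replicate 1 (adjusted p between 0.07 and 0.101, and 0.83 without MYC-Off replicate 3). Exons of Acaa1a also overlap 290 bases of Myd88 on the other strand, a gene at 2.98 to 4.99 CPM in MYC-On and 17.1 to 29.2 CPM in MYC-Off.

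Of the peroxisomal reductases for unsaturated chains, Decr2 (chromosome 17, 26081208 to 26090337) stood at 16, 14.8 and 19.5 CPM in MYC-On and at 36.9, 89.1 and 87.1 CPM in MYC-Off, without overlap (2.08, SE 0.37, adjusted p = 0.00388). Pecr, the trans-2-enoyl-CoA reductase, did not follow, at 162, 133 and 155 CPM in MYC-On and at 66.4, 253 and 170 CPM in MYC-Off (0.12, SE 0.45, adjusted p = 0.841; -0.72 with library size only). Eci2, an isomerase found in peroxisomes and mitochondria (chromosome 13, 34977748 to 35027096), was tight in MYC-On and more spread in MYC-Off. It rose from 18.2 ± 0.648 to 72.3 ± 20.5 CPM, with 17.5, 18.1 and 18.8 CPM in MYC-On and 49.5, 89.2 and 78.2 CPM in MYC-Off (1.99, SE 0.27, adjusted p = 0.00158).

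Within each library, 7 pairs of genes with related reactions in the 2 organelles were compared as ratios of CPM per kilobase. This removes the scaling between libraries. Not every pair is the same step. Acox2 acts on branched chains and bile acid intermediates, Acadvl on very long chains. Crot makes carnitine esters for export, and Cpt2 returns chains to coenzyme A. The reads of Acadvl and Acaa1a are also uncertain. Acaa1b, the near copy of Acaa1a, was not paired, and it rose more (3.61) than Acaa2 (1.59). For Eci2 over Eci1 the ratio was 0.0610, 0.0709 and 0.0592 in MYC-On and 0.382, 0.524 and 0.310 in MYC-Off. Ehhadh over Hadha moved from 0.162, 0.109 and 0.115 to 0.605, 1.65 and 1.31, and Acox2 over Acadvl from 0.404, 0.0981 and 0.219 to 1.68, 2.55 and 3.83. The ratio was also higher in every MYC-Off library for Decr2 over Decr1 (log2 difference 0.95), Crot over Cpt2 (1.67) and Hsd17b4 over Hadha (0.59). Acaa1a over Acaa2 was the exception, with overlapping groups and a log2 difference of -0.34 (exact permutation test, two-sided p = 0.3). The same exact test gave p = 0.1 for each of the other 6 pairs, the smallest value that 3 against 3 libraries allow, and 0.117 after adjustment over the 7 pairs, so none can pass 0.05.

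**Figure D3:**
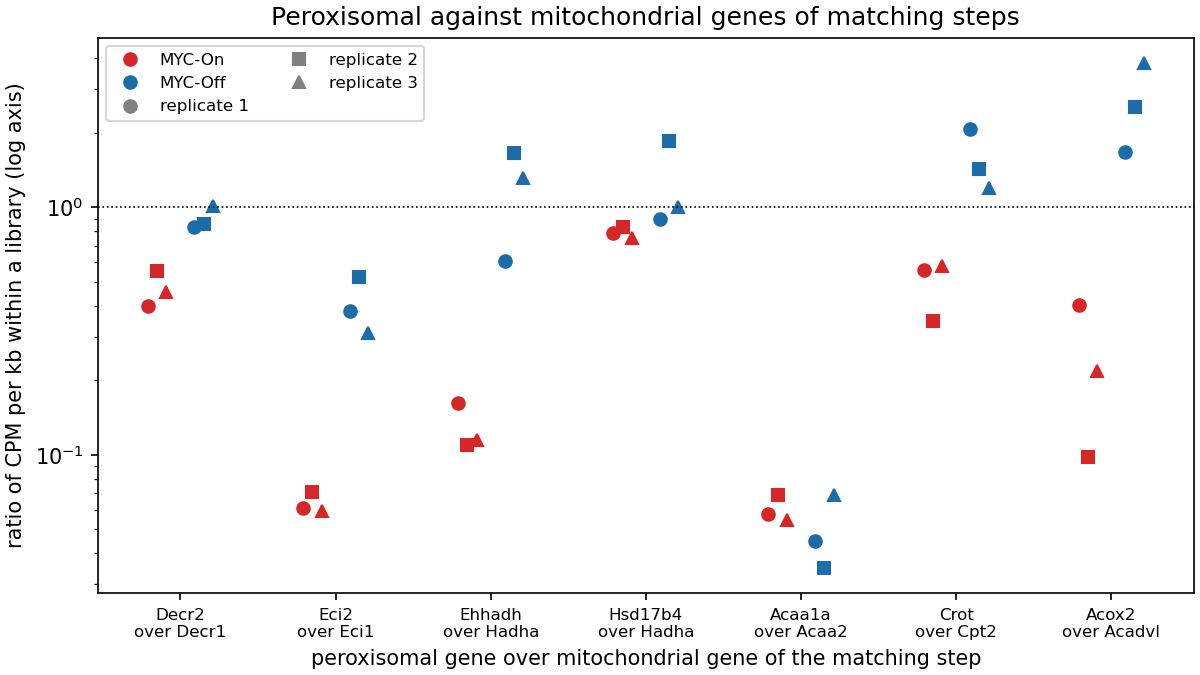
Ratio of CPM per kilobase of exon, peroxisomal or dual-site gene over mitochondrial gene, in each library (y axis, log scale) for 7 pairs with related reactions (x axis), with MYC-On in red, MYC-Off in blue and a symbol per replicate. For every pair but Acaa1a over Acaa2 the 3 blue points lie above the 3 red points, for example 0.310 to 0.524 against 0.0592 to 0.0709 for Eci2 over Eci1.

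Peroxisomal α-oxidation, which shortens branched chains such as phytanic acid by 1 carbon, rose at both of its listed steps. Phyh, the phytanoyl-CoA hydroxylase (chromosome 2, 4919019 to 4938730), stood at 181, 73.0 and 153 CPM in MYC-On and at 470, 1940 and 830 CPM in MYC-Off (2.99, SE 0.64, adjusted p = 0.00754). Hacl1, the lyase that follows (chromosome 14, 31598730 to 31641286), was at 15.8, 8.02 and 15.2 CPM in MYC-On and at 56.1, 272 and 182 CPM in MYC-Off (3.71, SE 0.61, adjusted p = 0.00301). Both were lowest in MYC-On replicate 2 and highest in MYC-Off replicate 2, and the groups did not overlap. Without MYC-Off replicate 2 Phyh stood at 2.16 and Hacl1 at 3.07, both still past the test. Annotated exons of other genes cover 33.3% of the exon bases of Hacl1.

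Catalase (Cat, chromosome 2, 103453849 to 103485160), which breaks down the hydrogen peroxide made in peroxisomes, was per kilobase the second most abundant of the 42 genes in each group. It stood at 442, 352 and 413 CPM in MYC-On and at 558, 3220 and 1240 CPM in MYC-Off. All MYC-Off libraries were higher, over a wide range, and the rise was 2.06 on the log2 scale (SE 0.64, adjusted p = 0.0299). Its call was lost with library size only (1.20, adjusted p = 0.0755), without each MYC-On replicate in turn (adjusted p = 0.0938, 0.112 and 0.103) and without MYC-Off replicate 2 (1.05, adjusted p = 0.0595).

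Traffic across the peroxisomal membrane was uneven. Crot, which makes carnitine esters of shortened chains for export (chromosome 5, 8966033 to 8997324), rose from 85.5 ± 21.9 to 285 ± 84.9 CPM. Its libraries stood at 89.8, 61.8 and 105 CPM in MYC-On and at 191, 357 and 306 CPM in MYC-Off (1.73, SE 0.34, adjusted p = 0.00552). Acot8, a thioesterase that releases chains from coenzyme A, stayed within 8.45 to 10.5 CPM over all 6 libraries, at a log2 ratio of -0.05 (SE 0.27, adjusted p = 0.9). Pex11a, which promotes elongation and division of peroxisomes (chromosome 7, 79735957 to 79743131), was at 4.94, 5.48 and 5.92 CPM in MYC-On and at 12.4, 47.5 and 33.8 CPM in MYC-Off (2.52, SE 0.49, adjusted p = 0.0053). Abcd3, a transporter that imports acyl chains, was at 144, 147 and 123 CPM in MYC-On and at 96.9, 385 and 205 CPM in MYC-Off. There replicate 1 was below MYC-On, and 0.73 (SE 0.47, adjusted p = 0.225) became 0.95 (adjusted p = 0.0326) without it, 0.02 (0.955) without MYC-Off replicate 2 and -0.12 (0.811) with library size only. Acetylcarnitine is made by Crat, which is found in both organelles, at 46.0, 47.9 and 42.8 CPM in MYC-On and at 68.9, 51.2 and 143 CPM in MYC-Off (0.95, SE 0.38, adjusted p = 0.0712). Crat passed without MYC-Off replicate 2 (1.12, adjusted p = 0.0243), but stood at 0.32 (adjusted p = 0.309) without replicate 3, its highest library, and at 0.17 (0.703) with library size only.

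Fatty acid binding and activation precede both routes. Fabp1, the liver fatty acid binding protein (chromosome 6, 71199827 to 71205023), was per kilobase the most abundant of the 42 genes in both groups. It stood at 261, 130 and 326 CPM in MYC-On and at 712, 2900 and 1230 CPM in MYC-Off, without overlap (2.76, SE 0.64, adjusted p = 0.0103). The call of Fabp1 was narrowly lost without MYC-On replicate 2 (2.41, adjusted p = 0.051), and its value was 1.92 without MYC-Off replicate 2. Acsl5, an acyl-CoA synthetase (chromosome 19, 55251938 to 55297720), was at 116, 99.6 and 115 CPM in MYC-On and at 189, 431 and 812 CPM in MYC-Off (2.12, SE 0.52, adjusted p = 0.0126), highest in replicate 3. Without that replicate Acsl5 stood at 1.38, and its call was lost without each MYC-On replicate in turn (adjusted p = 0.0537, 0.0644 and 0.0562). Acsl1, the main synthetase of liver, overlapped between groups at 679, 433 and 519 CPM and at 302, 1080 and 1020 CPM (0.55, SE 0.51, adjusted p = 0.392; -0.29 with library size only). Slc27a2, a very long chain synthetase and transporter, was at 217, 135 and 180 CPM in MYC-On and at 139, 594 and 297 CPM in MYC-Off (0.95, SE 0.52, adjusted p = 0.159; 1.18 and adjusted p = 0.0289 without MYC-Off replicate 1). Slc27a2 stood at 0.19 (adjusted p = 0.695) without MYC-Off replicate 2 and at 0.11 (0.832) with library size only.

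Acyl-CoA thioesterases, which cut chains from coenzyme A and so oppose activation, held both decreases. Acot1, the cytosolic long chain form (chromosome 12, 84009490 to 84018371), stood at 71.2, 61.0 and 61.9 CPM in MYC-On and at 10.7, 7.96 and 0.845 CPM in MYC-Off. Its log2 ratio was -3.31 (SE 0.75, adjusted p = 0.00936), and -4.02 without MYC-Off replicate 1. Acot2, the mitochondrial form next to it (83987861 to 83993873), stood at 11.4, 16.9 and 16.6 CPM in MYC-On and at 5.44, 3.06 and 3.46 CPM in MYC-Off (-1.90, SE 0.36, adjusted p = 0.00492). Neither pair of groups overlapped, and both calls held under every alternative, with Acot1 between -4.02 and -2.87 and Acot2 between -2.57 and -1.80. The genes are near copies and their reads are uncertain. Further copies lie beside them on chromosome 12, and these were picked after their values were seen: Acot3 stood at -2.04 (SE 0.69, adjusted p = 0.0398), Acot6 at -1.04 (SE 0.37, adjusted p = 0.0471) and Acot4 at -0.12 (SE 0.53, adjusted p = 0.862). Calls of Acot3 and Acot6 were lost without any one MYC-On replicate and against a minimum change of 1.5-fold. That of Acot3 was also lost without MYC-Off replicate 1 and that of Acot6 without MYC-Off replicate 2. The call of Acot6 was further lost with no low-count filter, with a filter of 1 CPM in 3 libraries and with the replicate block.

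Acot12, a cytosolic acetyl-CoA hydrolase on chromosome 13 (91741512 to 91786148), went the other way. It was at 23.7, 6.59 and 14.5 CPM in MYC-On and at 32.5, 103 and 68.1 CPM in MYC-Off (2.18, SE 0.57, adjusted p = 0.0159). Its call was lost without MYC-On replicate 2 (1.78, adjusted p = 0.0529) or 3 (2.11, adjusted p = 0.0642). Pdk4, a kinase that shuts off pyruvate oxidation when fat is burned, was the least abundant gene per kilobase in both groups. It was at 0.757, 2.13 and 1.04 CPM in MYC-On and at 8.52, 2.83 and 2.00 CPM in MYC-Off, unlike most members highest in MYC-Off replicate 1 (1.76, SE 0.71, adjusted p = 0.0704). Pdk4 passed with DESeq2 (1.72, adjusted p = 0.0388) and without MYC-Off replicate 3 (2.07, adjusted p = 0.0441), but stood at 0.74 (adjusted p = 0.308) without MYC-Off replicate 1.

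Known regulators of these pathways were tested as a list of 29, of which 28 passed the low-count filter, 10 rose (35.7%) and 5 fell (17.9%). These shares lie near the 29.9% and 22.8% of all genes, so the counts are no result about the list. The nuclear receptor Ppara rose from 11.2 ± 2.26 to 49.4 ± 35.3 CPM (2.15, SE 0.54, adjusted p = 0.0138), although without MYC-On replicate 1 or 2 it did not pass (adjusted p up to 0.0667). Its coactivator Ppargc1a rose from 0.496 ± 0.429 to 8.10 ± 5 CPM (4.01, SE 0.80, adjusted p = 0.00598). In MYC-On 1 read was worth 0.0409 to 0.0493 CPM, so the size of this rise rests on few MYC-On reads. Lpin1 and Lpin2, phosphatidic acid phosphatases of which Lpin1 also acts as a coactivator, rose by 2.88 and 1.95, and the oxysterol receptor Nr1h3 rose by 1.85. These calls of Ppargc1a, Lpin1, Lpin2 and Nr1h3 held under every alternative. The other rises were in Pparg (2.14), Nr1h4 (1.60), Klf15 (1.45), the dimer partner Rxra (1.22) and Creb3l3 (1.02), and each was lost without at least MYC-On replicates 1 and 2. Among those that fell, the Mediator subunit Med1 stood at -1.39 and the deacetylase Sirt1 at -1.17, both under every alternative. Mlxip (-1.11), Rxrb (-0.89) and Hif1a (-0.84) were also lower; Hif1a lost its call without MYC-On replicate 1, and Mlxip without any one library but MYC-Off replicate 1. The number higher was 5 and 4 without MYC-On replicates 1 and 2, and 3 were lower without MYC-On replicate 1. Under library size only 5 regulators were higher and 10 lower, so the direction split of this list depends on the scaling.

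**Figure D4:**
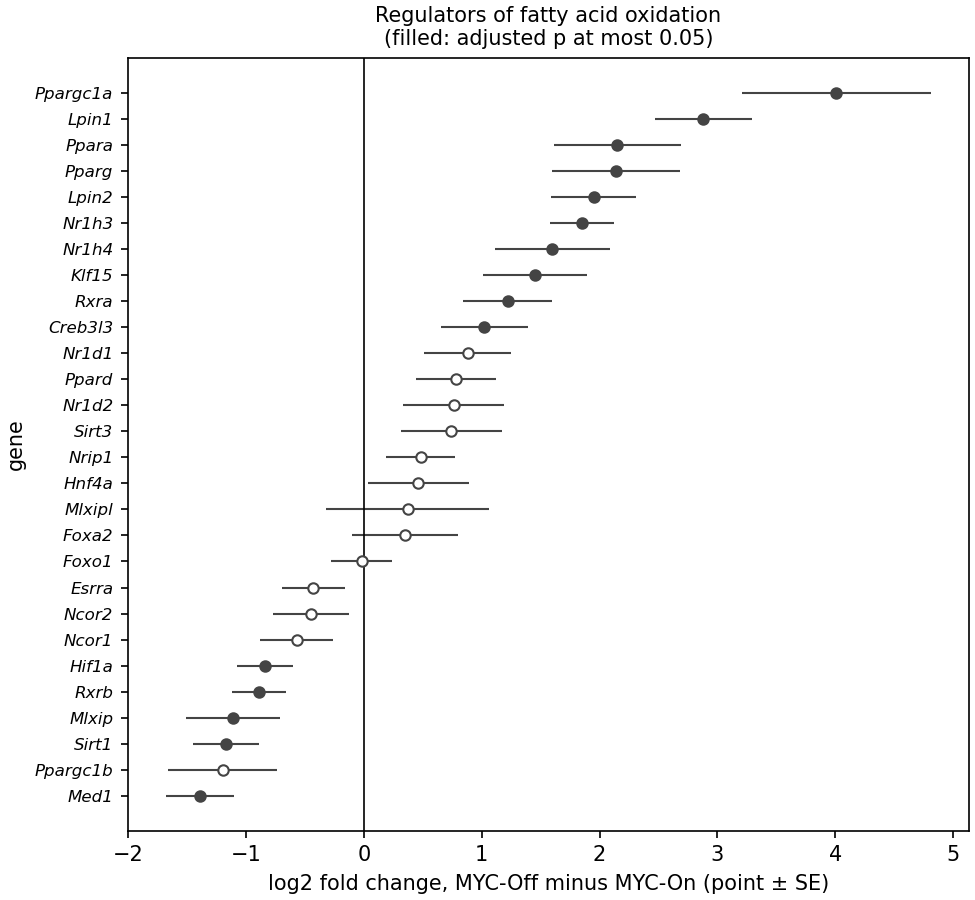
Log2 fold change (x axis, MYC-Off minus MYC-On, point ± SE, 3 libraries per group) of 28 regulators (y axis), filled where the adjusted p was at most 0.05. Ppargc1a at 4.01 and Lpin1 at 2.88 lie farthest right and Med1 at -1.39 farthest left; with library size only the split of 10 higher and 5 lower becomes 5 and 10.

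Peroxins, which build, import into and divide peroxisomes, showed no such rise as a list. Of 20 tested 6 rose (30%, near the 29.9% of all genes) and 2 fell (10%, against 22.8%), with a median log2 fold change of 0.19. Pex11g, a division factor related to Pex11a, rose from 1.28 ± 0.405 to 12.7 ± 6.99 CPM (3.31, SE 0.59, adjusted p = 0.00401) and held under every alternative. The import ring protein Pex2 rose by 1.35 and the tether Acbd5 by 1.58, and neither passed with library size only, while Acbd5 was also lost without MYC-On replicate 1 or 2. The fission GTPase Dnm1l fell from 155 ± 6.37 to 68.1 ± 6.76 CPM (-1.19) and Pex10, partner of Pex2, from 22.3 ± 4.16 to 8.18 ± 0.682 CPM (-1.45), both under every alternative. Under library size only 1 peroxin was higher and 6 were lower, and 2 were higher without MYC-On replicate 1 or 2 and 3 without MYC-Off replicate 2.

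Other peroxisomal proteins outside the 42 rose in 22 of 40 cases (55.0%) and fell in 7 (17.5%), with a median of 1.65. Of all genes tested 29.9% rose and 22.8% fell. Hao1, a glycolate oxidase, rose from 0.861 ± 0.717 to 214 ± 128 CPM and the oxidase Acox3 from 6.95 ± 0.427 to 37.1 ± 8.93 CPM. Against these, Gnpat and Agps, the peroxisomal enzymes that start ether lipid synthesis, fell from 119 ± 15.6 to 48.8 ± 11.5 CPM (-1.29, SE 0.24, adjusted p = 0.00486) and from 97.6 ± 11.5 to 34.7 ± 11.6 CPM (-1.49, SE 0.28, adjusted p = 0.0047). Abcd4, a cobalamin transporter, fell by -2.30 on the log2 scale. It is not mainly a peroxisomal protein, although it stands on this list and is counted among the 7. These 5 calls, of Hao1, Acox3, Gnpat, Agps and Abcd4, held under every alternative. Without MYC-On replicate 2, 14 of the list were higher, and without any one MYC-On replicate 3 were lower.

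On a list for other mitochondrial genes of fatty acid and related acyl-CoA oxidation, 19 of 37 rose (51.4%) and 3 fell (8.11%). The median was 1.25, and of all genes tested 29.9% rose and 22.8% fell. The coenzyme A diphosphatase Nudt7, which works in peroxisomes although it stands on this list, rose by 4.93, the propionyl-CoA carboxylase subunit Pccb by 2.13 and Etfrf1, a regulator of ETF, by 2.07. Cpt1c, a form of Cpt1a typical of brain, fell from 24.9 ± 8.25 to 2.85 ± 1.41 CPM (-3.11), Acot7 from 64.4 ± 11.1 to 21.7 ± 0.876 CPM (-1.57), and Acad9, an assembly factor of complex I, by -1.17 on the log2 scale. Neither Cpt1c nor Acot7 is mainly a mitochondrial protein, although both stand on this list. The number of this list that was higher was 8, 9 and 9 without MYC-On replicates 1, 2 and 3 and 10 with library size only, and 6 were lower without MYC-Off replicate 3. Of 41 tested genes known as PPARα targets or of lipid storage and uptake, 24 rose (58.5%) and 1 fell (2.44%). The shares of all genes were 29.9% and 22.8%. Among those that rose were the uptake receptor Cd36 (3.15), the lipase Lipe (3.59) and the droplet protein Plin2 (2.02). Acsl3 was the gene that fell (-1.51, SE 0.42), and it lost its call without MYC-On replicate 1 or 3. Of that list 7 were lower with library size only, and between 0 and 5 were lower when 1 library was left out.

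Markers of other cell types moved with the groups. The counts below stand beside 29.9% of all genes tested that rose and 22.8% that fell. Summed CPM over 10 macrophage markers was 675 to 1270 in MYC-On and 2480 to 9460 in MYC-Off (9 rose), over 8 endothelial markers 53.4 to 63.6 and 294 to 623 (6 of 7 tested rose), and over 9 stellate cell and fibroblast markers 143 to 151 and 1000 to 2240 (7 of 8 tested rose). For 7 T and NK cell markers the range was 2.05 to 3.35 and 4.76 to 189 (5 of 5 tested rose), for 6 neutrophil markers 2.09 to 3.25 and 95.8 to 149 (5 of 5), for 5 B and plasma cell markers 1.72 to 3.01 and 1.54 to 178 (1 of 2), for 6 erythroid markers 31.5 to 90.9 and 684 to 2300 (5 of 5) and for 6 cholangiocyte markers 44.2 to 104 and 86.3 to 257 (2 of 5, and 1 fell). In MYC-Off the macrophage, endothelial, stellate, T and B cell sums were highest in replicate 1, the library in which most members were lowest. Summed over 15 hepatocyte markers, of which 14 rose, CPM was 9840, 4960 and 8500 in MYC-On and 90600, 179000 and 267000 in MYC-Off, with MYC-On replicate 2 and MYC-Off replicate 1 lowest. In MYC-Off that sum is mostly Alb, and the median of the 15 markers, as log2 CPM against the MYC-On mean, was 3.09, 3.81 and 3.06, where replicates 1 and 3 hardly differed. The median log2 fold change of these markers was 3.51, above that of both member groups. All 6 proliferation markers fell, from a sum of 964 to 1240 CPM to 65.1 to 135 CPM. Of 7 adipocyte markers Plin1, Lep and Ucp1 had no read, and Adipoq reached at most 0.230 CPM. The only one tested was Pck1, which liver also uses for gluconeogenesis, and it rose from 4.72 ± 5.26 to 501 ± 515 CPM (6.73, SE 1.30, adjusted p = 0.00526). Of 7 muscle markers only Ckm was tested, and it fell from at most 3.16 CPM. The part of cell composition in the members' changes was not tested.

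**Figure D5:**
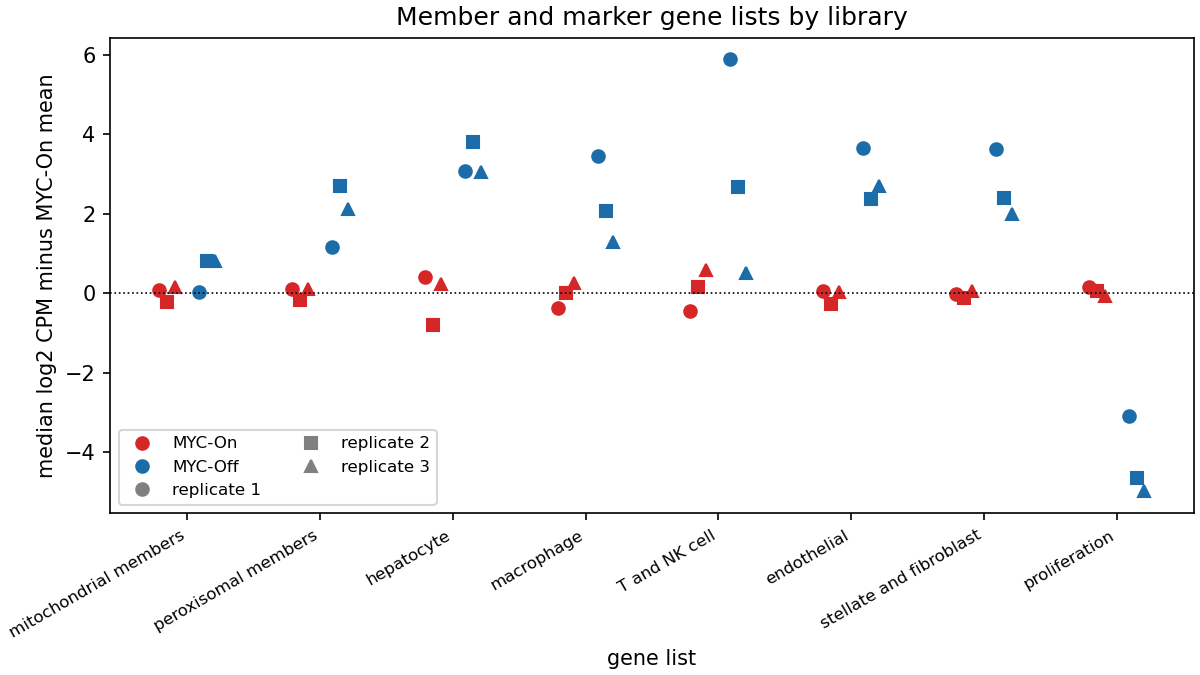
Median over the genes of a list of log2 CPM minus the MYC-On mean (y axis), by library, for the 2 groups of members and 6 marker lists (x axis), with MYC-On in red, MYC-Off in blue and a symbol per replicate. MYC-Off replicate 1 is lowest for both groups of members, at 0.03 and 1.16, and highest for the macrophage, T and NK cell, endothelial and stellate lists.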

How the data were processed

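The deposited table holds whole-number read counts per gene symbol for 6 libraries, not normalized by the authors. Per the submitters' processing notes Trimmomatic, STAR, Picard, featureCounts and DESeq2 were used with build mm10. Tool versions, gene models and strandedness of the counting, and its treatment of multiply matched reads, are not stated there. Groups and replicate numbers came from the titles.

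Counts were tested in R 4.3.3 with edgeR 4.0.16: genes were kept by filterByExpr (at least 10 reads, total at least 15), scaled by TMM and fitted by robust quasi-likelihood with Benjamini-Hochberg adjustment over all genes tested, with a threshold of 0.05. Each SE is the log2 fold change over the root of its F. Log2 CPM used a prior count of 2. Coordinates (mm10) and union exon lengths came from GENCODE M21. The members and the lists were chosen with earlier results of these data known. Any member could be named. Named from other lists were all regulators that passed and, in each other list, the 3 genes with the smallest adjusted p in each direction, of which 1 is not reported here. On simulated counts with 200 of 13903 genes changed, 2% of the genes set to 2-fold were called, 52% of those at 4-fold, 80% at 8-fold and 82% at 16-fold, beside 8 false calls. In the data 52.7% of genes were called, a far larger part. The adjustment is then less strict, so these shares do not measure the power of the real comparison. Libraries of a group differed by more than sampling noise in every pair (chi-square over degrees of freedom at least 31.3). Alternatives were other scalings, filters and tests (DESeq2 1.42.0, limma-voom with limma 3.58.1, glmTreat against 1.5-fold), a replicate block and leaving out each library. Figures used matplotlib 3.10.9.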

Additional observations from a re-analysis of the deposited data

How the results depend on the processing

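Library size only gave the medians, the counts of lower members and the counts over all genes farthest from those reported. With it 3 mitochondrial genes and 5 members were lower, and the medians were -0.18 (mitochondrial) and 1.23 (peroxisomal). Over all, 2527 genes were higher and 5300 lower (32.3% of calls higher, against 56.7%). It left 1 mitochondrial gene higher, as did leaving out MYC-On replicate 1 or 2. It left 13 members higher, against 9 without MYC-On replicate 2. Library size only also turned the sign of Cpt1a (-0.42), Cpt2 (-0.64), Acadl (-0.29), Acadm (-0.79), Acads (-0.44), Hadha (-0.37), Acat1 (-0.06), Abcd3 (-0.12), Pecr (-0.72) and Acsl1 (-0.29), none of which had passed the test. Acadm turned negative with DESeq2 size factors (-0.06), no low-count filter (-0.05), DESeq2 (-0.06), limma-voom (-0.06) and the replicate block (-0.08), and Pecr with limma-voom (-0.05) and the block (-0.07). DESeq2 called 1 mitochondrial gene lower. Against a minimum change of 1.5-fold 3 mitochondrial genes were higher. With 1 library left out, 9 to 25 members were higher and 2 to 3 lower, 1 to 8 mitochondrial and 7 to 12 peroxisomal genes were higher, 0 to 1 mitochondrial genes were lower, and 2776 to 4317 genes were higher over all. Acadm then ranged from -0.40 to 0.22, Cpt2 from -0.15 to 0.39 and Pecr from -0.46 to 0.35. Each such fit has fewer samples; for other changes the cause was not tested. With the replicate number as a block 3 mitochondrial genes and 13 members were higher. The numbers do not pair the samples: deviations of same-numbered libraries correlated at -0.262, -0.168 and 0.04. Pdk4 had the fewest reads, 90 over the MYC-On libraries, and depth limits it most among the members.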
